A study of Mus musculus with 2 samples.

Results

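Arterial endothelium was followed in foetal mouse gonads through 10 genes: the gap junction genes Gja4 and Gja5, the Notch ligand and receptor genes Dll4 and Notch4, the Notch-responsive repressor genes Hey1 and Hey2, the ephrin gene Efnb2, and the SOXF transcription factor genes Sox7, Sox17 and Sox18. The genes were taken as a named list, and each symbol matched 1 of the 42422 Ensembl identifiers in the count table. All 10 passed the filter on low counts and were among the 15125 genes tested.

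RNA was measured as 3′ molecule counts in GFP-negative gonadal somatic cells from 40 libraries, which fall into 10 groups of 4. All groups carried the Oct4-eGFP transgene, which marks germ cells, on a 129svJT2 background crossed to ASMU Swiss, with a genotype given as WT, and each library pooled several E12.5 gonads. XX and XY gonads were taken uncultured (0 h) or after culture in DMSO for 24 h or 72 h. XY gonads were also cultured for 24 h or 72 h with 500 nM BGJ398, an inhibitor of FGF receptors (FGFRi), or with 500 nM PD0325901, an inhibitor of the kinase MEK that acts in the ERK pathway downstream of FGF and VEGF receptors (MEKi). Gonads were cultured with the mesonephros attached, which was removed before sorting. The sort was negative for GFP and no endothelial gate was used, so every cell type of the gonad other than GFP-positive germ cells could contribute. In such bulk samples fewer endothelial cells and less RNA per endothelial cell cannot be told apart.

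Arteries differ from veins in the genes their endothelium uses. VEGF signalling and SOXF factors are known to act upstream of Dll4 and the Notch receptors, and Notch activity turns on Hey1, Hey2 and Efnb2, while Gja4 and Gja5 encode the connexins that couple arterial endothelial cells. In the foetal testis, endothelial cells migrate in from the mesonephros at the stage studied here and build a coelomic artery that the ovary lacks. Of the 10 genes, Hey1, Hey2 and Efnb2 are also known to be used outside endothelium.

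Total counts ran from 1380707 to 4836550 per library, with a median of 2248854. Levels are CPM, counts relative to the library total scaled by TMM factors, and differences were tested with edgeR's quasi-likelihood test across all genes and groups. A gene was called changed at a Benjamini-Hochberg adjusted p under 0.05 and a fold change of at least 1.5. Xist and Ddx3y matched the labelled sex in all 40 libraries. Endothelial RNA was present in every group: the summed level of 21 pan-endothelial genes ran from 171 CPM in 1 library of the XY MEKi 24 h group to 636 CPM in 1 library of the XY DMSO 24 h group, and none of the 21 was at 0 throughout any group. The libraries were sequenced in 2 pools. The first pool held the uncultured groups, both 24 h DMSO groups and 24 h MEKi. The second held 24 h FGFRi and all 72 h groups.

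**Figure D1:**
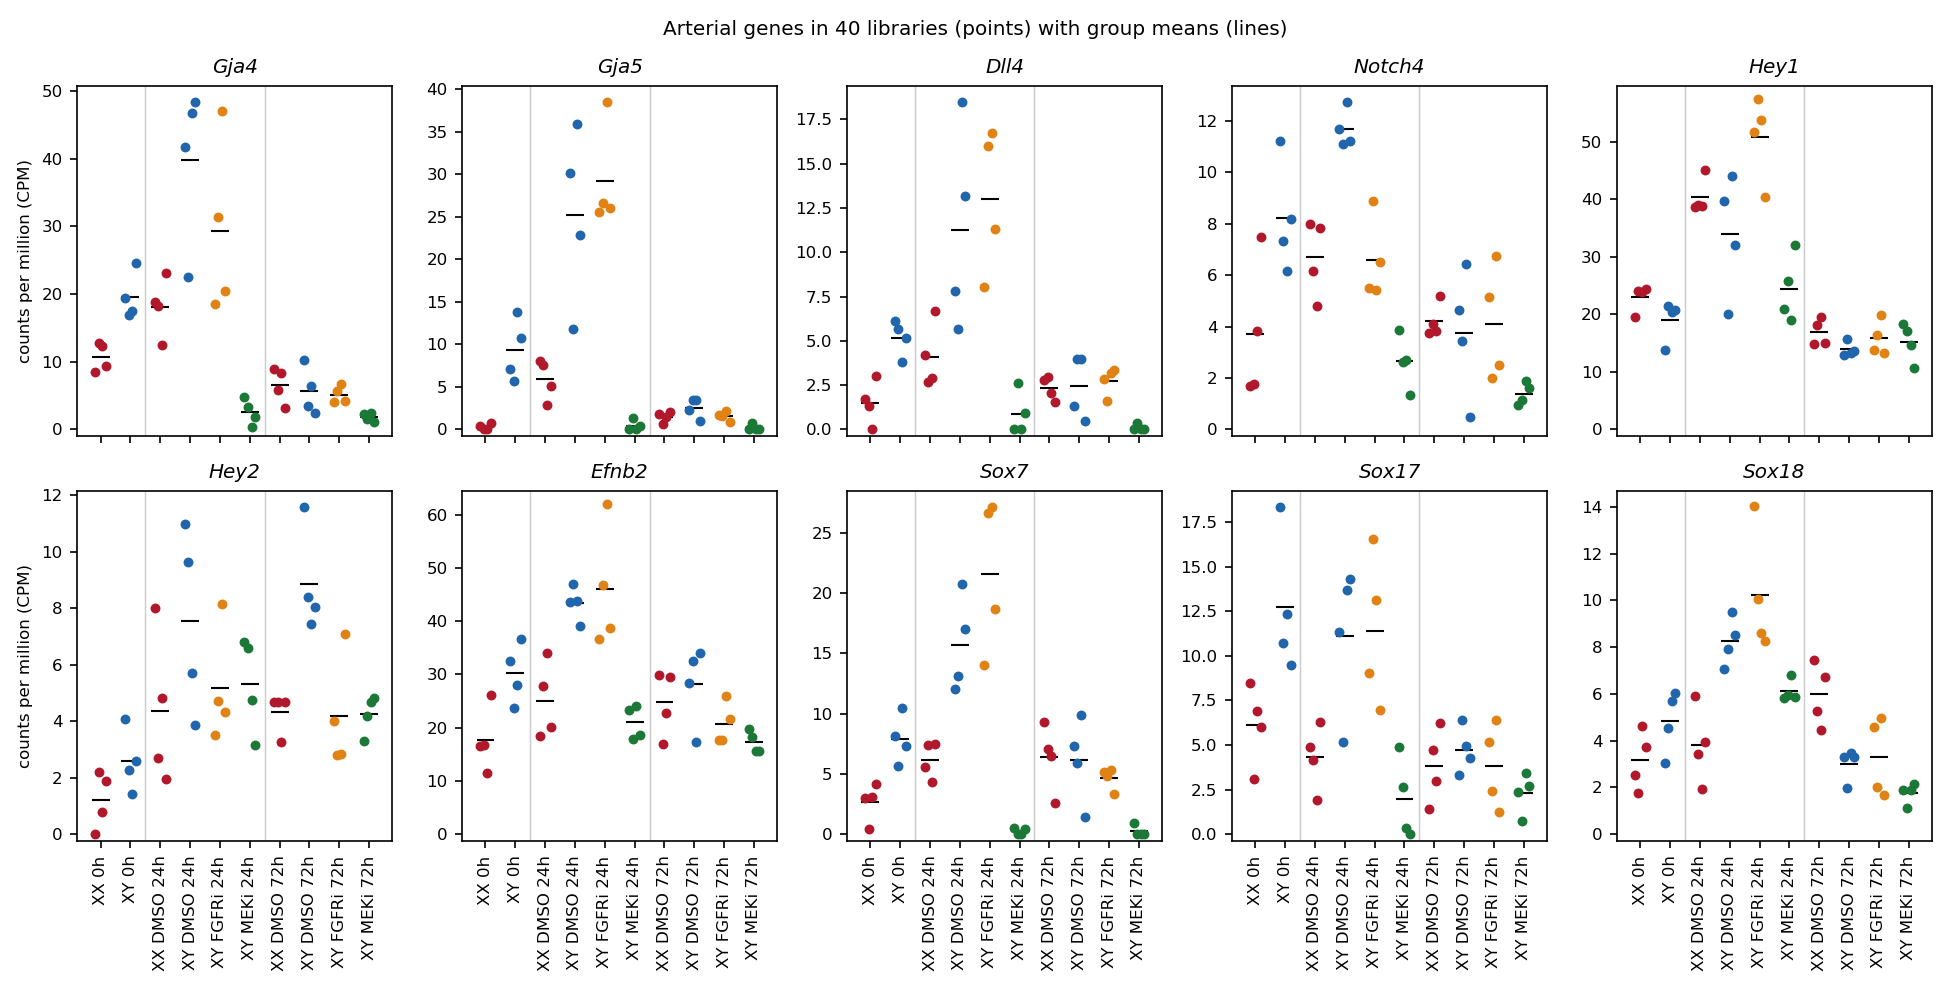
Level of each of the 10 arterial genes in CPM (vertical axis, linear, a scale for each panel) in the 40 libraries (points) of the 10 groups (horizontal axis), with group means as lines; red is XX, blue XY, orange FGFRi and green MEKi. Gja5, Dll4 and Sox7 lie between 0 and 2.64 CPM in both MEKi groups, while Hey1, Hey2 and Sox18 at 24 h lie above 3 CPM in every MEKi library.

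After 24 h of MEKi, 7 of the 10 genes were lower than in XY DMSO gonads, and none was higher. Among all genes tested, 1.98% were called lower and 1.28% higher in this comparison. The median log2 fold change of the 10 genes was -2.37, against -0.0064 over all genes. Gja5, Sox7, Gja4 and Dll4 fell most, Sox17, Notch4 and Efnb2 fell less, and Hey1, Hey2 and Sox18 did not pass the test. In 8 of the 10 genes every MEKi library lay below every DMSO library, which held in this direction for 4.79% of all genes.

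Gja5 (chr3:96812009-96984732 in GRCm39, + strand) and Gja4 (chr4:127205214-127207851, - strand) encode the arterial connexins. Gja5 was at 30.1, 11.9, 36.0 and 22.8 CPM in the XY DMSO libraries M2, M3, M4 and M5, from 48 to 189 counts. In the MEKi libraries M1, M2, M4 and M6 it had 0, 2, 0 and 1 counts, which is 0 to 1.32 CPM. The groups were separated by a wide gap, with DMSO M3 the lowest of its group. Pooled over libraries, 381 counts stood against 3, a 75.3-fold difference with a 95% counting interval of 25.6 to 367. The fitted log2 fold change of -5.99 ± 0.55 (SE; adjusted p = 2.72e-11) rests on those 3 counts and depends on the prior count. Gja4 kept more counts: it was at 41.8, 22.5, 46.8 and 48.4 CPM with DMSO and at 4.86, 3.30, 0.34 and 1.81 CPM with MEKi. Its log2 fold change was -4.06 ± 0.38 (adjusted p = 5.96e-11), a 16.6-fold lower level, and the highest MEKi library lay far below DMSO M3.

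Dll4 (chr2:119156170-119166443, + strand), the main Notch ligand of arterial and sprouting endothelium, was at 7.79, 5.68, 18.5 and 13.2 CPM with DMSO. With MEKi it had 0, 4, 0 and 2 counts, the highest being 2.64 CPM in M2. The log2 fold change was -3.91 ± 0.60 (adjusted p = 5.25e-06). Notch4 (chr17:34783220-34807477, + strand), a Notch receptor largely restricted to endothelium, was even across the DMSO libraries, from 11.1 to 12.8 CPM, and lay between 1.36 and 3.89 CPM with MEKi. Its log2 fold change was -2.13 ± 0.41 (adjusted p = 3.14e-04).

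The SOXF genes did not move by the same amount. Sox7 (chr14:64181006-64188352, + strand) was at 12, 13.1, 20.7 and 17.0 CPM with DMSO and had 1, 0, 0 and 1 counts with MEKi. Pooled, 240 counts stood against 2, a 71.1-fold difference with a 95% counting interval of 19.5 to 591, beside a fitted log2 fold change of -5.82 ± 0.62 (adjusted p = 1.95e-09). Sox17 (chr1:4561151-4567784, - strand) was at 11.3, 5.19, 13.7 and 14.3 CPM with DMSO and at 4.86, 2.64, 0.34 and 0 CPM with MEKi. It fell by 2.61 ± 0.52 on the log2 scale (adjusted p = 6.01e-04), with MEKi M1 just under DMSO M3. Sox18 (chr2:181311629-181313438, - strand) was at 7.09 to 9.52 CPM with DMSO and at 5.83 to 6.81 CPM with MEKi. These ranges did not overlap, but the log2 difference of -0.43 ± 0.32 did not pass the test (adjusted p = 0.562).

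Efnb2 (chr8:8667226-8711249, - strand), which encodes the arterial ligand of the venous receptor EPHB4, was at 39.1 to 46.9 CPM with DMSO and 17.8 to 24.2 CPM with MEKi, a 2.05-fold fall (log2 -1.03 ± 0.20, adjusted p = 4.65e-04). Hey1 (chr3:8726956-8732385, - strand) was at 39.7, 20.0, 44.2 and 32.1 CPM with DMSO and at 20.9, 25.7, 19.1 and 32.2 CPM with MEKi. The Hey1 groups overlapped, with a log2 difference of -0.49 ± 0.19 (adjusted p = 0.14). Without DMSO M3, its lowest DMSO library, Hey1 passed the test, at -0.68 (adjusted p = 0.017). Hey2 (chr10:30708350-30718828, - strand) was at 3.87 to 11 CPM with DMSO and 3.17 to 6.80 CPM with MEKi, with a log2 difference of -0.52 ± 0.39 (adjusted p = 0.568). All 7 calls were kept with each library of the comparison left out in turn. MEKi M2, which GEO's description of its pool leaves out and which was placed by its name in the deposited table, held 2 of the 3 Gja5 counts and 4 of the 6 Dll4 counts of its group. Without it the fitted log2 fold changes were -7.06 for Gja5 (adjusted p = 1.14e-10) and -5.11 for Dll4 (adjusted p = 2.09e-06).

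The promoters of the 3 genes Gja5, Dll4 and Gja4 are shown because these genes fell together with MEKi. RefSeq promoters (GRCm38.p6) were matched for 6 of the 10 genes, Gja4, Gja5, Dll4, Notch4, Hey2 and Efnb2, and not for Hey1, Sox7, Sox17 and Sox18. Each sequence is the 250 bases before the RefSeq transcription start, and capitals mark a match on either strand to AGGAAG (an ETS core), TGGGAA (an RBPJ core) or AACAAT (a SOX core). The first of these occurred in Gja5 and Notch4, the second in Hey2, and the third in none of the 6. Of 32851 RefSeq promoter windows of the same length, 29.5%, 21.6% and 9.42% held the motifs in that order. The 3 motifs do not contain one another, and a match is a description of these letters.
Gja5, chr3:97032152-97032401, + strand: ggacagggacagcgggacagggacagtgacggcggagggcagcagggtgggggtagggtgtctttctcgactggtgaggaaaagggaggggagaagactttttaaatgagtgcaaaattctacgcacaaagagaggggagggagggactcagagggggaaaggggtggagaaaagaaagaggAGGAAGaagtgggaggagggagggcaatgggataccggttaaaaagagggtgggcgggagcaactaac
Dll4, chr2:119325534-119325783, + strand: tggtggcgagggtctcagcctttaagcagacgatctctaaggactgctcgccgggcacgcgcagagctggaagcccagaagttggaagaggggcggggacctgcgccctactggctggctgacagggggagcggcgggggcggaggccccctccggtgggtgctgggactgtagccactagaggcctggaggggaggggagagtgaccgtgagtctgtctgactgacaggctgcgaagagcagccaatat
Gja4, chr4:127314040-127314289, - strand: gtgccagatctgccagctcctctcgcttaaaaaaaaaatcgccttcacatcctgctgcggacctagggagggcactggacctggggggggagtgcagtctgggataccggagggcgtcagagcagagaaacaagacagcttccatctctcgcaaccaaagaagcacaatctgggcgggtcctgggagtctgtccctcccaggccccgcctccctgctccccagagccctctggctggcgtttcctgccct

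Endothelial genes as a group also fell with 24 h of MEKi: 18 of the 21 pan-endothelial genes were called lower and none higher, with a median log2 fold change of -2.00. Cd34 (-1.85), Kdr (-1.55) and Egfl7 (-1.14) were among the 18, and Ramp2 (-0.26) was not. Summed over the 21 genes, the level was 447 to 636 CPM with DMSO and 171 to 203 CPM with MEKi. Each arterial gene was therefore also set against the pan-endothelial counts of its own library, a scale chosen once the results were known. The pan-endothelial sum is weighted to genes of high level, so it can fall less than most of the genes in it. Gja5 made up 64.7, 26.5, 56.6 and 38.1 counts per 1000 pan-endothelial counts with DMSO and 0, 6.49, 0 and 2.65 with MEKi. Sox7 made up 25.9 to 32.6 per 1000 with DMSO and 0 to 2.65 with MEKi. Gja4 made up 50.2 to 89.8 with DMSO and 1.89 to 26.0 with MEKi. The groups of these 3 genes did not overlap, lower with MEKi, as did those of 0.245% of all genes tested on this scale.

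Hey1 and Sox18 went the other way on that scale. Hey1 was at 44.7 to 85.2 per 1000 with DMSO and at 106 to 188 with MEKi, and Sox18 was at 14.2 to 17.7 with DMSO and 29.2 to 37.9 with MEKi. Both were higher with no overlap, which was so for 82.9% of all genes tested on a scale whose denominator was itself lower with MEKi. The other 5 genes overlapped between the groups. Dll4 was at 12.7 to 29.0 per 1000 with DMSO and 0 to 13 with MEKi. At 72 h Gja5, Dll4 and Sox7 lay apart on this scale, lower with MEKi, as did 1.18% of all genes, and Gja4 overlapped. Gja5, Dll4 and Sox7 held 2, 1 and 2 pooled counts in the 72 h MEKi group. The summed pan-endothelial level had a median of 332 CPM with DMSO and 213 CPM with MEKi at 72 h. Ramp2 and Cd34, among the highest of the pan-endothelial genes by level, were not called there. Whether the arterial genes fell beyond endothelial RNA at 72 h was not tested.

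**Figure D2:**
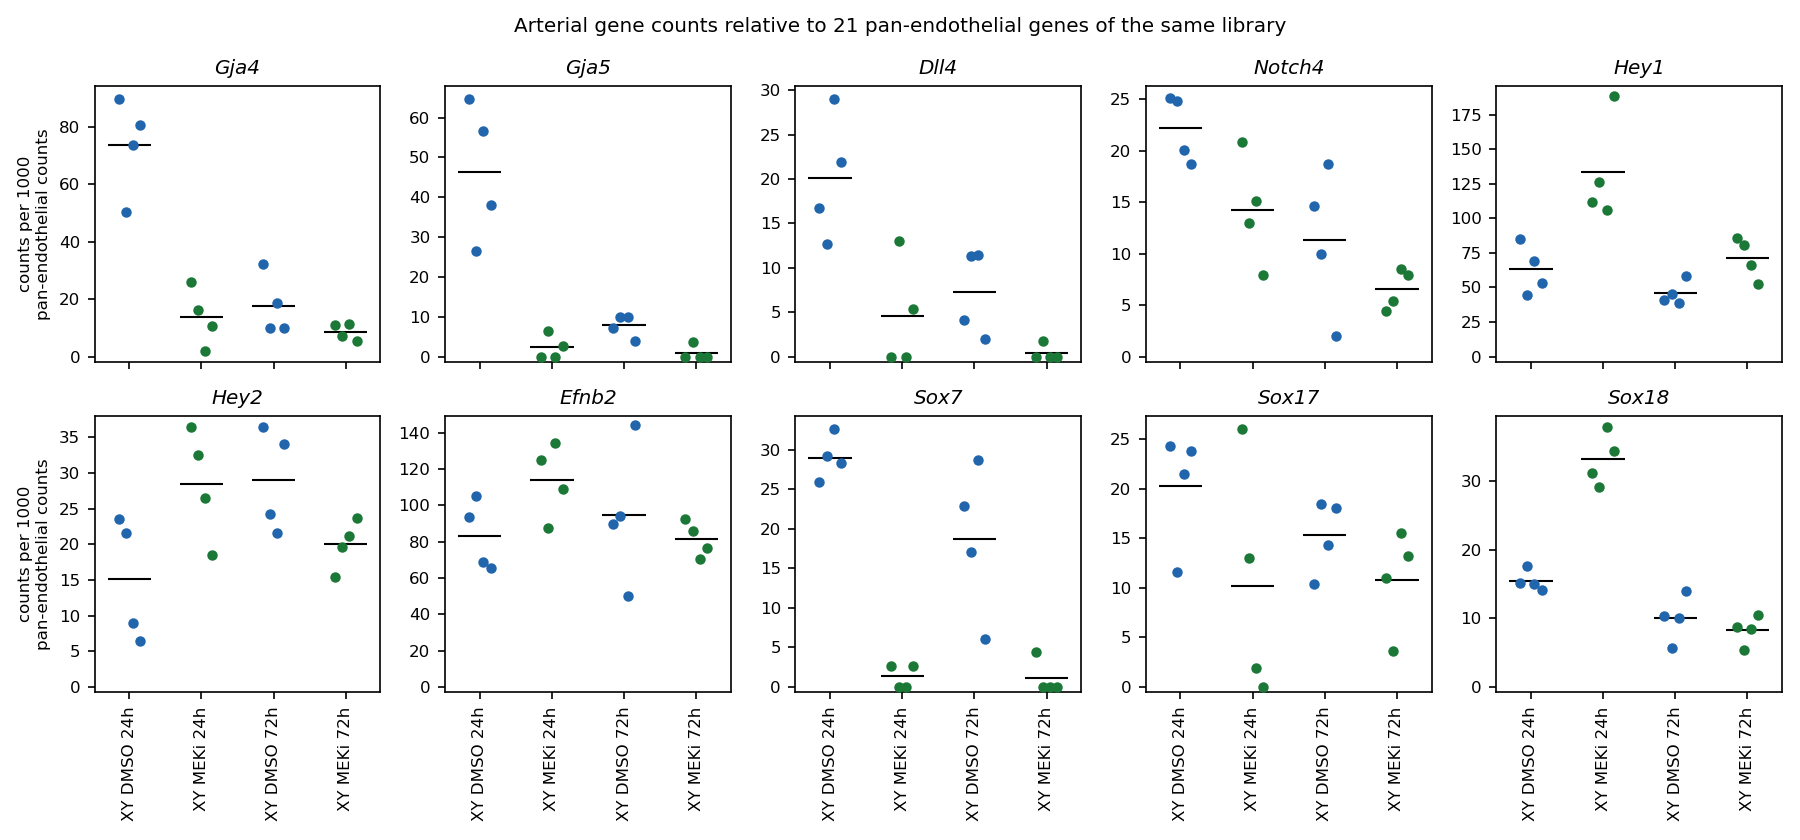
Counts of each arterial gene per 1000 counts of 21 pan-endothelial genes in the same library (vertical axis, linear, a scale for each panel) for XY DMSO (blue) and XY MEKi (green) at 24 h and 72 h, with points for libraries and lines for means. At 24 h the DMSO and MEKi points of Gja4, Gja5 and Sox7 are apart with MEKi lower, and those of Hey1 and Sox18 are apart with MEKi higher.

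Most other genes of the Notch pathway did not pass the test at 24 h. Of 21 genes beyond the 10, 20 were tested, 4 were lower at 24 h with MEKi and none was higher, with a median of -0.24. The 4, named after their values were seen, were the receptor gene Notch1 (-1.48), the Notch target genes Heyl (-1.59) and Nrarp (-3.50), and the fringe gene Mfng (-2.38). Hes1 (0.04), Adam10 (0.52) and Notch2 (0.28) did not pass the test. Of 7 other arterial genes tested, 3 were lower, including Nrp1 (-1.02) and Unc5b (-1.45), and Epas1 (-0.21) and Jag1 (-0.40), a Notch ligand gene held by both lists, did not pass. Of 4 venous genes 1, Aplnr (-1.72), was lower, and Nr2f2 (0.27), Ephb4 (-0.12) and Nrp2 (-0.49) did not pass the test. Nr2f2 had a mean of 611 CPM over the 40 libraries, beside 171 to 636 CPM for the 21 pan-endothelial genes summed. In a sort without an endothelial gate its level need not report venous endothelium.

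Markers of other cells also moved in this comparison. Of 7 mural genes 5 were lower, with medians of the summed level at 697 CPM with DMSO and 549 CPM with MEKi, and 2 of 4 germ cell genes were higher, with a summed level of 69.4 to 130 CPM with DMSO and 147 to 285 CPM with MEKi. Of 6 Sertoli genes, 1 was called, higher. Of the 5 erythroid and 5 macrophage genes tested none was called, though the summed macrophage level was 20.5 to 46.1 CPM with DMSO and 5.28 to 18 CPM with MEKi. The part of these cell types in the arterial differences was not tested.

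After 72 h of MEKi, 5 of the 10 genes were lower than in XY DMSO gonads and none was higher, while 4.19% of all genes were called lower and 2.28% higher. The 5 were Sox7, Dll4, Gja5, Gja4 and Efnb2. The study's method, which tests against the fold threshold itself, called only 1 of the 10. The median log2 fold change was -1.23, against 0.0029 over all genes. The DMSO level to fall from was itself low: Gja5 had 7, 7, 7 and 2 counts in the DMSO libraries M2, M4, M5 and M6, and 0, 2, 0 and 0 counts in the MEKi libraries M2, M3, M4 and M5. Pooled, 23 counts against 2 made a 12.3-fold difference, with a counting interval of 3.04 to 108 (fitted log2 -3.33 ± 0.84, adjusted p = 0.0057). Dll4 had 4, 8, 8 and 1 counts with DMSO and 0, 1, 0 and 0 with MEKi, a 22.5-fold difference with an interval of 3.62 to 930 (adjusted p = 0.00602). Sox7 had 22, 12, 20 and 3 counts with DMSO and 2, 0, 0 and 0 with MEKi, a 30.5-fold difference with an interval of 8.07 to 258 (adjusted p = 7.66e-06). In these 3 genes and Hey2 no MEKi library reached the lowest DMSO library, as in 8.24% of all genes.

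Gja4 was at 10.3, 3.46, 6.44 and 2.36 CPM with DMSO at 72 h and at 2.35, 1.52, 2.50 and 1.07 CPM with MEKi. The groups overlapped at DMSO M6, and the log2 fold change was -1.60 ± 0.49 (adjusted p = 0.0256). This call was lost without DMSO M2 (-1.06, adjusted p = 0.265), MEKi M3 (adjusted p = 0.0714) or MEKi M5 (adjusted p = 0.0646). Efnb2 fell by 0.71 ± 0.22 on the log2 scale (adjusted p = 0.0276), and lost its call without DMSO M2, M4 or M6 or without MEKi M4 or M5, with adjusted p from 0.0636 to 0.0939. Hey2 was at 11.6, 8.40, 7.43 and 8.04 CPM with DMSO and 3.30, 4.17, 4.68 and 4.82 CPM with MEKi. These ranges lay apart, but the log2 difference of -1.07 ± 0.40 gave an adjusted p of 0.0758. Notch4 (-1.39), Sox17 (-0.98), Sox18 (-0.79) and Hey1 (0.14) did not pass the test. DMSO M6 was the lowest DMSO library for Gja4, Gja5, Dll4, Notch4 and Sox7, and without it Notch4 passed, at -1.73 (adjusted p = 0.0168).

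At 72 h, 15 of the 21 pan-endothelial genes were lower with MEKi, with a median log2 fold change of -2.43. Their summed level was 236 to 347 CPM with DMSO and 203 to 221 CPM with MEKi. Ramp2 (0.21) and Cd34 (0.38), among the highest of the 21 by level, did not pass the test. Of 20 Notch pathway genes 5 were lower, Notch1, Heyl, Nrarp, Mfng and Jag1, named after their values were seen. Among the venous genes Aplnr (-3.61) was lower, and Nr2f2 (0.11), Ephb4 (-0.23) and Nrp2 (0.14) did not pass the test. Of the 5 macrophage genes tested 4 were lower, with a summed level of 39.7 to 106 CPM with DMSO and 20.4 to 30.6 CPM with MEKi. Of 7 mural genes 5 were lower, Rgs5 (-3.94), Abcc9 (-3.40), Kcnj8 (-1.48), Pdgfrb (-1.37) and Cspg4 (-0.78), and Acta2 (0.99) was higher. Of 4 Leydig genes tested 3 were higher, with a summed level of 392 to 596 CPM with DMSO and 811 to 1276 CPM with MEKi. Of 6 Sertoli genes 2, Sox9 (-0.61) and Amh (-1.90), were lower and 1, Cldn11 (0.73), was higher, named after their values were seen. The part of these cells in the arterial differences was not tested. The MEKi effect at 72 h was set against that at 24 h in the same model, and no gene of the 10 differed by edgeR's test. At an unadjusted p under 0.05, 3 differed, Gja4, Hey1 and Sox17. For Gja4 the fall at 72 h was smaller by 2.46 ± 0.71 on the log2 scale (adjusted p = 0.0631). DESeq2 called this gene (adjusted p = 0.0146), and edgeR did so without DMSO 24 h M3 (adjusted p = 0.0294), MEKi 24 h M1 (adjusted p = 0.0377) or DMSO 72 h M2 (adjusted p = 0.0253). Over all genes 1.41% were called in either direction.

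With FGFRi none of the 10 genes was called at either time by edgeR's test. At 24 h the log2 differences ran from -0.84 for Notch4 to 0.57 for Hey1, with a median of 0.14, and 3.27% of all genes were called in either direction. At an unadjusted p under 0.05, 2 genes differed, Notch4 and Hey1, and DESeq2 called none. Gja5 was at 25.6, 26.6, 38.5 and 26.1 CPM with FGFRi against 11.9 to 36.0 CPM with DMSO, and the log2 difference was 0.21 ± 0.29. Sox7 was at 14.1, 26.6, 27.2 and 18.7 CPM against 12 to 20.7 CPM, a log2 difference of 0.44 ± 0.31. Dll4 was at 8.03 to 16.7 CPM against 5.68 to 18.5 CPM. Notch4 was lower in every FGFRi library, at 5.43 to 8.87 CPM against 11.1 to 12.8 CPM (adjusted p = 0.188), and 5.28% of all genes lay apart in this way. Hey1 was at 51.7, 57.4, 53.9 and 40.4 CPM, with a fold change of 1.49, just under the 1.5 asked for (adjusted p = 0.0415). It passed both thresholds without DMSO M2, DMSO M4 or FGFRi M5, at log2 differences of 0.63, 0.73 and 0.67. The 24 h FGFRi libraries and their DMSO controls lie in different pools, so that pool and treatment cannot be told apart.

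At 72 h, with both groups in the second pool, the FGFRi differences ran from -1.10 for Hey2 to 0.23 for Dll4, with a median of -0.23, and 1.8% of all genes were called. Gja5 had 3, 4, 6 and 2 counts with FGFRi against 7, 7, 7 and 2 with DMSO, and Sox7 had 9, 12, 15 and 8 against 22, 12, 20 and 3. Hey2, the 1 gene at an unadjusted p under 0.05, was at 4.01, 2.82, 2.85 and 7.08 CPM with FGFRi, all below the DMSO libraries (adjusted p = 0.157), and 3.64% of all genes lay apart in this way. DESeq2 called none of the 10. The pan-endothelial genes had 2 of 21 called lower at 24 h and 1 of 21 at 72 h with FGFRi.

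**Figure D3:**
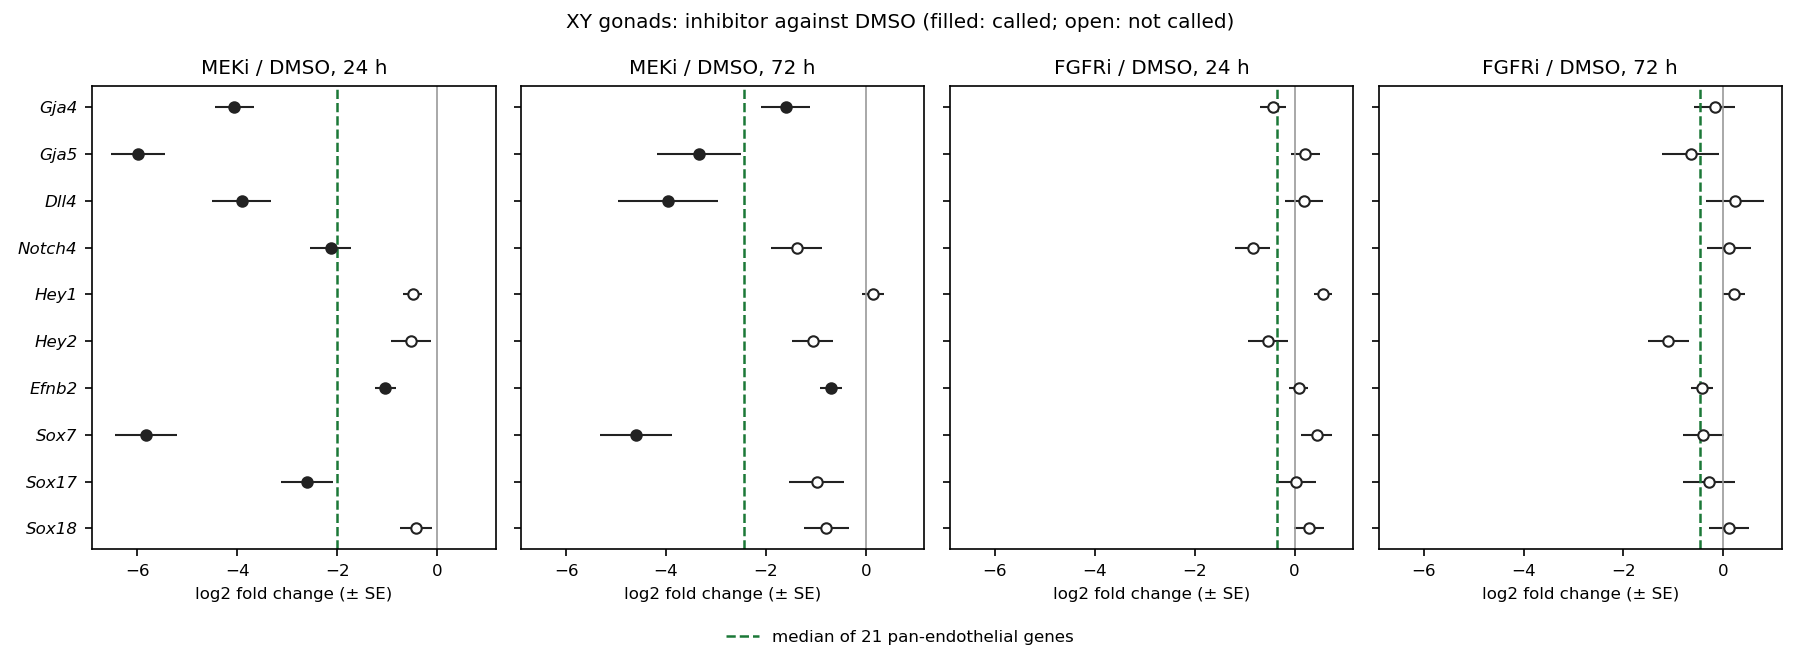
Log2 fold change with SE (horizontal axis) of each arterial gene (vertical axis) for MEKi and FGFRi against DMSO in XY gonads at 24 h and 72 h, with filled points called and open points not called, and a dashed line at the median of 21 pan-endothelial genes. With MEKi 7 points at 24 h and 5 at 72 h are filled and lie left of 0, and with FGFRi no point is filled.

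The inhibitors were compared directly at 72 h, where dose, time and pool were matched, so that 1 pair was compared. Dll4, Sox7, Gja5 and Notch4 were lower with MEKi than with FGFRi, 4 of the 10 genes, where 4.69% of all genes were called lower. The study's method, which tests against the fold threshold itself, called none of the 10. Dll4 had 0, 1, 0 and 0 counts with MEKi and 5, 4, 9 and 8 with FGFRi, a 27.1-fold difference with an interval of 4.45 to 1110 (adjusted p = 0.00219). Sox7 differed 22.9-fold, with an interval of 5.97 to 195 (adjusted p = 6.32e-05). Gja5 (adjusted p = 0.0493) and Notch4 (adjusted p = 0.0489) stood at the threshold and each lost its call in 6 of the 8 fits that left out a library, Gja5 without FGFRi M2, M4 or M5 or MEKi M2, M4 or M5, and Notch4 without FGFRi M2 or M5 or any of the 4 MEKi libraries. Gja4 (-1.43 ± 0.50, adjusted p = 0.0591), Sox18 (-0.90 ± 0.44), Sox17 (-0.70 ± 0.56), Efnb2 (-0.28 ± 0.23), Hey1 (-0.07 ± 0.22) and Hey2 (0.03 ± 0.44) did not pass the test. Of the 21 pan-endothelial genes 11 were lower with MEKi than with FGFRi and 2 were higher, with a median of -1.82. Of 6 Sertoli genes 5 were lower, with a summed level of 554 to 759 CPM with MEKi and 904 to 1544 CPM with FGFRi, 2 of 7 mural genes were lower, and of 5 erythroid genes 1, Hba-a1 (-1.34), was lower. Their part in the arterial differences was not tested.

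In DMSO culture the arterial genes changed over time in XY gonads. After 24 h, 6 of the 10 were higher than in uncultured XY gonads and none was lower: Hey2 (log2 1.53 ± 0.44), Gja5 (1.41 ± 0.32), Dll4 (1.13 ± 0.43), Gja4 (1.01 ± 0.28), Sox7 (0.99 ± 0.35) and Hey1 (0.83 ± 0.19). Over all genes 8.92% were called higher and 5.5% lower. By the study's method, which tests against the fold threshold itself, only 1 of the 10 was called. Gja5 was at 7.13, 5.65, 13.8 and 10.8 CPM uncultured, overlapping only the lowest 24 h library. Sox17 was at 18.3, 10.7, 12.3 and 9.50 CPM before culture and 5.19 to 14.3 CPM after it, with a log2 difference of -0.20 ± 0.39. The calls of Dll4 and Sox7 were not stable to leaving out a library. The Dll4 call was lost without uncultured M2, M3, M5 or M6 or without DMSO M4 or M5 (adjusted p from 0.0724 to 0.287). The Sox7 call was lost without uncultured M2, M3 or M6 or DMSO M4 or M5 (adjusted p from 0.0512 to 0.129). Of the 21 pan-endothelial genes 1 was higher and 2 were lower, and all 7 other arterial genes tested and 6 of 7 mural genes were higher, with a summed mural level of 223 to 271 CPM before culture and 627 to 743 CPM after it. Both groups lie in the first pool. Of the 5 erythroid genes tested all were lower, with a summed level of 7992 to 9911 CPM before culture and 1449 to 4636 CPM after 24 h. The Sertoli genes Sox9, Dhh and Ptgds were lower, with a summed Sertoli level of 1488 to 1632 CPM before and 753 to 1206 CPM after. Leydig genes Cyp11a1, Cyp17a1 and Hsd3b1 were higher, with a summed Leydig level of 153 to 300 CPM before and 630 to 937 CPM after. The macrophage genes Cx3cr1 and C1qb were lower, and the interstitial progenitor gene Pdgfra was higher. The part of these cells and of mural cells in the arterial differences was not tested.

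With MEKi the 24 h level lay below the uncultured one. Sox7, Gja5, Gja4, Sox17, Dll4 and Notch4 were lower after 24 h of MEKi than in uncultured XY gonads, 6 of 10 genes where 6.21% of all genes were called lower, and all 6 kept their call with any library left out. Gja4 fell from 17.0 to 24.6 CPM to 0.34 to 4.86 CPM (log2 -3.05 ± 0.42, adjusted p = 9.74e-08). Gja5 had 78 pooled counts before culture against 3, a 27.8-fold difference with an interval of 9.17 to 138. Sox7 had 65 against 2, a 34.8-fold difference with an interval of 9.25 to 293. Hey2 was at 1.42 to 4.08 CPM uncultured and 3.17 to 6.80 CPM with MEKi, a log2 difference of 1.01 ± 0.48 (adjusted p = 0.136), and Hey1, Sox18 and Efnb2 differed by 0.34, 0.33 and -0.52 and did not pass the test. In the same comparison 17 of 21 pan-endothelial genes, all 5 macrophage genes tested and 4 of 5 erythroid genes were lower. Of 4 germ cell genes tested 3 were higher, as were 2 of 4 Leydig genes, and of 6 Sertoli genes 2 were lower and 1 was higher. The summed macrophage level was 51.0 to 58.9 CPM before culture and 5.28 to 18 CPM with MEKi. What share these cells had in the arterial differences was not tested.

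Between 24 h and 72 h, DMSO groups lie in different pools, so time and pool cannot be told apart there. FGFRi was sequenced at both times in the second pool, and this comparison was chosen once the results were known. From 24 h to 72 h of FGFRi, 8 of the 10 genes fell, all but Notch4 (-0.66 ± 0.41) and Hey2 (-0.32 ± 0.44), and all 8 lay apart between the times. Over all genes 2.32% were called lower and 6.14% lay apart in this direction. Gja5 fell 17.9-fold, from 25.6 to 38.5 CPM at 24 h to 0.833 to 2.13 CPM at 72 h (log2 -4.16 ± 0.42, adjusted p = 1.42e-10). Gja4 fell from 18.6 to 47.1 CPM to 4.01 to 6.76 CPM, and Hey1 from 40.4 to 57.4 CPM to 13.3 to 19.9 CPM (log2 -1.65 ± 0.20, adjusted p = 9.66e-09). Sox17 lost its call without FGFRi 24 h M3 or M4 or FGFRi 72 h M4 or M6 (adjusted p from 0.0698 to 0.119). Of the 21 pan-endothelial genes 12 were lower and 1 was higher, with a median of -1.23. Of 5 erythroid genes 3 were lower, Hba-a1 (-1.68), Hbb-bt (-2.64) and Alas2 (-2.48), with a summed level of 1796 to 4490 CPM at 24 h and 444 to 1182 CPM at 72 h, and of 3 tip cell genes Esm1 (-1.78) was lower and Angpt2 (0.98) higher. The part of these cells in the arterial differences was not tested.

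XX gonads held less of most arterial transcripts than XY gonads before culture and at 24 h. In uncultured gonads 6 of the 10 genes were lower in XX and none was higher, where 9.32% of all genes were called lower and 8.01% higher. After 24 h in DMSO 7 were lower and none was higher, where 10.4% and 9.24% of all genes were. With the study's method, which tests against the fold threshold itself, only 1 of the 10 genes was called at each of these times. Gja5 differed most at both times. It had 1, 0, 0 and 2 counts in the uncultured XX libraries F2, F3, F4 and F5 and 14, 10, 29 and 25 counts in the XY libraries M2, M3, M5 and M6. Pooled, 78 counts against 3 made a 27.4-fold difference with an interval of 9.05 to 136 (fitted log2 -4.58 ± 0.63, adjusted p = 6.08e-08). After 24 h it was at 8.01, 7.62, 2.88 and 5.11 CPM in XX against 11.9 to 36.0 CPM in XY, 4.10-fold lower (log2 -2.04 ± 0.33, adjusted p = 1.39e-06). At both times every XX library was below every XY library, as for 12.5% of all genes before culture and 12.8% at 24 h.

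The other genes lower in uncultured XX gonads were Dll4 (-1.58 ± 0.57), Sox7 (-1.56 ± 0.45), Notch4 (-1.11 ± 0.41), Gja4 (-0.90 ± 0.32) and Efnb2 (-0.73 ± 0.22). Apart from Gja5, each of these calls was lost in at least 1 fit that left out a library. Dll4 lost it without XX F2, F3 or F4 or XY M2, M3 or M6, and Notch4 without the same 6 libraries. Gja4 lost it without XX F2 or F5 or XY M2 or M6, Efnb2 without XY M6 and Sox7 without XX F3, and the adjusted p in all these fits ran from 0.051 to 0.171. The lowest count of calls was 2, without XY M6. At 24 h the other lower genes were Dll4 (-1.48 ± 0.42), Sox17 (-1.33 ± 0.43), Sox7 (-1.33 ± 0.34), Gja4 (-1.12 ± 0.27), Sox18 (-1.09 ± 0.33) and Efnb2 (-0.80 ± 0.19). Dll4 lost its call without XY M4, and Sox17 without XX F6 or XY M4, with adjusted p from 0.0545 to 0.0799. Hey1 was the 1 gene with a positive value at both times, 0.26 ± 0.21 and 0.25 ± 0.17, and did not pass the test.

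The pan-endothelial genes had the same direction, with 10 of 21 lower in XX before culture (median -0.76) and 16 of 21 at 24 h (median -0.94). Their summed level was 255 to 393 CPM in XX and 464 to 555 CPM in XY before culture, and 242 to 291 CPM against 447 to 636 CPM at 24 h. Per 1000 pan-endothelial counts, 3 of the 10 genes were lower in uncultured XX without overlap, where 3.1% of all genes were, and at 24 h none was, where 2.1% of all genes were. Hey1 was higher in XX without overlap on this scale at both times, at 62.0 to 94.5 per 1000 against 24.8 to 46.3 before culture and at 134 to 172 against 44.7 to 85.2 at 24 h, where 37.7% and 65.1% of all genes were.

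Markers of other cells differed between the sexes as well. Of 7 mural genes 6 were lower in XX at 24 h, with a summed level of 211 to 265 CPM against 627 to 743 CPM. At 24 h 4 of 5 erythroid genes were lower in XX, with a summed level of 604 to 1236 CPM against 1449 to 4636 CPM, as were all 4 interstitial progenitor genes, at 162 to 243 CPM against 656 to 753 CPM. Before culture 3 of 7 mural genes, 3 of 4 interstitial progenitor genes, 3 of 4 germ cell genes tested and 2 of 5 erythroid genes were lower in XX, and 1 mural gene was higher. Their part in the arterial differences was not tested.

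At 72 h in DMSO, Hey2 was the only 1 of the 10 called, at 4.67, 4.70, 3.26 and 4.67 CPM in XX F11, F4, F7 and F8 against 7.43 to 11.6 CPM in XY (log2 -1.07 ± 0.41, adjusted p = 0.0428). Over all genes 10.8% were called lower. This call was lost in 7 of the 8 fits that left out a library, all but that without XY M5, with adjusted p from 0.0533 to 0.152. Gja5 had 4, 1, 5 and 4 counts in XX and 7, 7, 7 and 2 in XY (log2 -0.70 ± 0.58), and Dll4 and Sox7 differed by -0.01 ± 0.61 and 0.06 ± 0.40. Sox18 was higher in every XX library, at 4.44 to 7.47 CPM against 1.98 to 3.47 CPM (log2 0.95 ± 0.38, adjusted p = 0.0523), where 13.4% of all genes lay apart in this way. It passed without XX F7 (adjusted p = 0.0406). The summed level of the other arterial genes still lay apart at 72 h, at 96.8 to 150 CPM in XX and 262 to 310 CPM in XY. That sum was 83.1 to 101 CPM against 128 to 138 CPM before culture, and 99.4 to 116 CPM against 261 to 324 CPM at 24 h. The summed pan-endothelial level at 72 h was 193 to 247 CPM in XX and 236 to 347 CPM in XY, which overlapped.

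**Figure D4:**
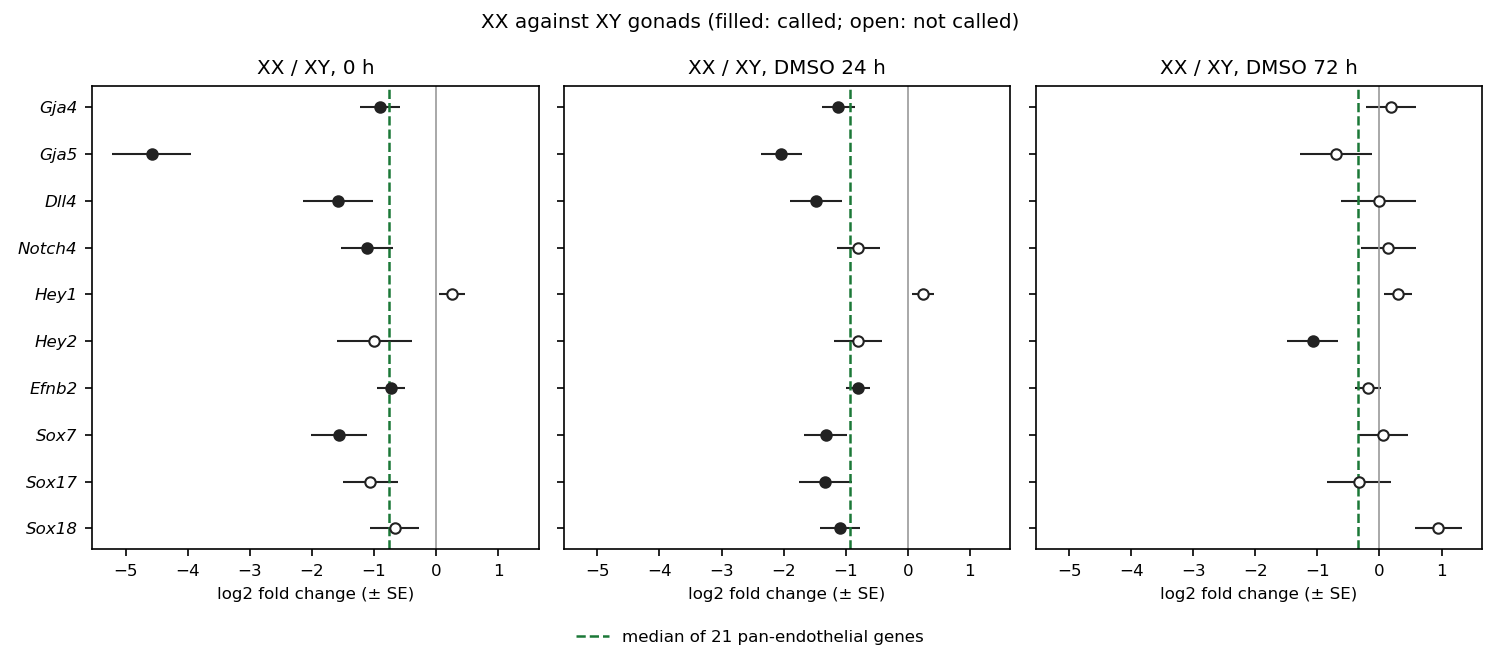
Log2 fold change with SE (horizontal axis) of each arterial gene (vertical axis) in XX against XY gonads before culture and after 24 h and 72 h in DMSO, with filled points called and open points not called, and a dashed line at the median of 21 pan-endothelial genes. The filled points are 6, 7 and 1 in that order, all left of 0.

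Whether the XX-XY difference itself changed was tested within the model. Between the uncultured state and 24 h, Gja5 was the 1 gene of the 10 whose difference changed, by 2.54 ± 0.80 on the log2 scale (adjusted p = 0.0417), where 3.51% of all genes were called in this direction. In XX it rose from 3 pooled counts to 73, an 18.1-fold difference with an interval of 5.95 to 89.8, and in XY by 2.66-fold. The call was lost without uncultured XX F2, F3 or F4, uncultured XY M5 or M6, XX DMSO F4 or F5, or XY DMSO M3 or M5, with adjusted p from 0.0538 to 0.13. Hey1 (log2 0.82 ± 0.19) and Hey2 (1.73 ± 0.54) were also higher in XX after 24 h of culture, which with Gja5 makes 3 of 10 genes where 5.46% of all genes were called higher. The Hey2 call was lost without uncultured F2 or F4 or DMSO F4 or F6 (adjusted p from 0.0504 to 0.173), and without uncultured F5 Notch4, Efnb2 and Sox7 passed as well. By the study's method none of the 10 was called in XX culture. In XX culture all 5 erythroid genes were lower, with a summed level of 5043 to 9098 CPM before and 604 to 1236 CPM after it, 3 of 5 macrophage genes tested were lower, and 3 of 4 germ cell genes tested and 4 of 7 mural genes were higher. What share these cells had in the arterial differences was not tested. Between 24 h and 72 h, Sox18 was the 1 gene whose XX-XY difference changed, by 2.04 ± 0.50 (adjusted p = 0.0131), where 1.18% of all genes were called in this direction. It kept this call with any library left out. Each of these XX-XY differences lies within 1 pool.

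Over all 10 groups, mean Gja5 was highest in XY FGFRi 24 h (29.2 ± 6.20 CPM, SD, n = 4) and XY DMSO 24 h (25.2 ± 10.4 CPM). It then declined through XY 0 h (9.34 ± 3.66), XX DMSO 24 h (5.90 ± 2.39), XY DMSO 72 h (2.55 ± 1.2), XY FGFRi 72 h (1.57 ± 0.54) and XX DMSO 72 h (1.5 ± 0.66). The lowest means were those of XY MEKi 24 h (0.44 ± 0.62), XX 0 h (0.29 ± 0.36) and XY MEKi 72 h (0.19 ± 0.38). The ranges of the 4 libraries overlapped for all 9 pairs of neighbours in this order. The lowest groups hold 2 or 3 counts each and were not distinguishable at this depth.

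The common profile of the 10 genes was the mean of their standardised log2 CPM in each of the 40 libraries, which share 2 pools and 10 groups. As a description, Pearson's r of each gene with the profile it is part of ran from 0.26 for Hey2 and 0.67 for Hey1 to 0.92 for Dll4 and 0.95 for Gja5. Of the other genes tested, those with the highest r were Mecom (0.88), Unc5b, Btnl9, Cldn5, Esam, Bcl6b, Cdh5, Nos3, Icam2 and Ushbp1 (0.82). Cldn5, Esam, Cdh5 and Icam2 belong to the 21 pan-endothelial genes and Unc5b to the other arterial genes.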

How the data were processed

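The deposited table holds raw molecule counts per Ensembl gene, which the authors made with scPipe and Rsubread from 3′ reads with unique molecular identifiers, aligned to GENCODE GRCm39 and assigned with the strand in use. The submitters' processing notes also name edgeR and limma. The 40 columns were assigned to groups by the deposited library names. GEO's description names 19 of the 20 libraries in the first pool, and XY MEKi 24 h M2 was placed by the pool's title and its own name. Of the 42422 identifiers, 40391 (99.0% of counts) matched GENCODE M39, which gave symbols and positions. Opposite-strand genes overlap all of the 10 genes but Hey2 and Sox7, and E230020D15Rik, Gm45074 and Gm45073 overlap Efnb2 on its own strand.

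Counts were filtered with filterByExpr by group, scaled by TMM and fitted with edgeR 4.0.16 in R 4.3.3 as 1 quasi-likelihood model of the 10 groups, with Benjamini-Hochberg adjustment over 15125 genes. The fit was tested on simulated data. Alternatives were RLE or no composition factors, no filter or 1 CPM in at least 4 libraries, DESeq2 1.42.0, voom with quality weights and treat (limma 3.58.1, the study's method), a fit of the compared groups alone, a replicate block, and leaving out single libraries. Genes with 1 to 3 pooled counts in a group are given as ratios of pooled counts with exact 95% intervals, which cover counting error only. The study's methods state that several gonads were pooled for each sample, and within a group the library names carry separate replicate numbers.

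The 10 genes and the gene lists were chosen with earlier results of these data known. Named genes are the 10, up to 4 per list by mean CPM, the 10 closest to their profile, and some further list genes named because they were called.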

Additional observations from a re-analysis of the deposited data

Results flagged for a closer look

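In 10 of the 100 sets of 4 libraries, 1 set for each gene and group, a library stood apart by Dixon's test at the 95% level, where chance flags about 1 in 20. Of these, 3 rest on 1 or 2 counts beside libraries at 0, all in XY MEKi 72 h: Gja5 in M3 (0.759 CPM), Dll4 in M3 (0.379 CPM) and Sox7 in M2 (0.942 CPM). Hey1 stood apart in 3 groups, at 19.5 CPM in uncultured XX F2 against 23.9 to 24.3 CPM in the others, at 13.8 CPM in uncultured XY M2 against 20.4 to 21.5 CPM, and at 45.2 CPM in XX DMSO 24 h F9 against 38.6 to 39.1 CPM. Gja5 was at 38.5 CPM in XY FGFRi 24 h M4 against 25.6 to 26.6 CPM. Hey2 was at 3.26 CPM in XX DMSO 72 h F7 against 4.67 to 4.70 CPM. Sox18 was at 6.81 CPM in XY MEKi 24 h M4 against 5.83 to 5.94 CPM, and at 1.98 CPM in XY DMSO 72 h M4 against 3.31 to 3.47 CPM.

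The XX-XY difference changed with culture for 2 of the 10 genes by the interaction term: Gja5 between the uncultured state and 24 h, by 2.54 on the log2 scale, and Sox18 between 24 h and 72 h in DMSO, by 2.04. Over all genes 3.51% and 1.18% were called in these directions. The Gja5 call was lost in several fits that left out a library, and with DESeq2, voom and total counts. The Sox18 call was lost with voom, without a filter and with the replicate block.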

How the results depend on the processing

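Of the fits that left out 1 library, 903 gave a log2 value for 1 of the 10 genes with the same direction and side of the threshold, 14 gained a call, 76 lost one and 31 changed sign, and of the other alternatives 876, 13, 60 and 9 did so. The count of the 10 genes called ran, with 1 library left out, from 7 to 8 for MEKi at 24 h, 3 to 5 for MEKi at 72 h, 0 to 1 for FGFRi at 24 h, 0 to 0 for FGFRi at 72 h, 2 to 4 for MEKi against FGFRi, 2 to 6 for XX against XY before culture, 5 to 8 at 24 h and 0 to 1 at 72 h, 4 to 6 for XY culture, 2 to 6 for XX culture, 6 to 6 for 24 h MEKi against uncultured, 7 to 8 for FGFRi over time, 0 to 1 for the change of the MEKi effect, 0 to 1 for the early and 1 to 1 for the late change of the XX-XY difference. With voom and treat, which tests against the fold threshold itself, 6 genes were called for MEKi at 24 h, without Efnb2, 4 for 24 h MEKi against uncultured and for FGFRi over time, 1 for MEKi at 72 h, for XX against XY before culture and at 24 h and for XY culture, and 0 for MEKi against FGFRi, XX against XY at 72 h, XX culture and both changes of the XX-XY difference. With only the groups compared, the low-count filter kept 3 of the 10 genes for MEKi at 72 h, of which 2 were called, Efnb2 and Hey2 (-1.08, adjusted p = 0.0237), and 2 for MEKi against FGFRi, of which 0 were called, so these lower counts come from genes left untested. In that setting 0 were called for the early change of the XX-XY difference. With 1 CPM in 4 libraries, 2 were called for MEKi against FGFRi, and 0 for XX against XY at 72 h and the early change. Without a filter, 0 were called for XX against XY at 72 h and the late change, and 1 for the change of the MEKi effect, as with DESeq2. Total counts and DESeq2 gave 0 for the early change. The cause of the other shifts was not tested.

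Same-numbered libraries did not pair, with correlations of their deviations from -0.279 to 0.188 over 10918 genes. With the replicate block 7 genes were called for MEKi at 24 h, 4 at 72 h, 0 for FGFRi at both times, 2 for MEKi against FGFRi, 7 for XX against XY before culture and at 24 h, 0 at 72 h, 4 for XY culture, and 0 for the late change of the XX-XY difference.

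The log2 values that changed sign belong to genes not called in that comparison. With FGFRi at 24 h Sox17 was -0.026 by total counts and -0.019 by voom, and with 1 library left out Gja5 ran from -0.031 to 0.44, Dll4 from -0.042 to 0.55, Efnb2 from -0.10 to 0.17 and Sox17 from -0.22 to 0.21. With FGFRi at 72 h Sox18 was -0.13 by voom, and Gja4 ran from -0.41 to 0.37, Dll4 from -0.081 to 0.57, Notch4 from -0.29 to 0.46, Sox17 from -0.73 to 0.012 and Sox18 from -0.20 to 0.34. For MEKi against FGFRi Hey2 was -0.025 with the block, and Hey1 ran from -0.17 to 0.053 and Hey2 from -0.15 to 0.41. For XX against XY at 72 h Gja4 was -0.17 with the block, Dll4 was 0.00093 without a filter, 0.0022 with 1 CPM in 4 libraries, 0.18 by voom and 0.14 with the block, and Gja4 ran from -0.060 to 0.73, Dll4 from -0.34 to 0.32, Notch4 from -0.21 to 0.48 and Sox7 from -0.26 to 0.34. For XY culture Sox17 ran from -0.33 to 0.049. Depth limits the folds of Gja5 in 3 groups, Sox7 in 2 and Dll4 in 1, each of which holds 1 to 3 pooled counts of the gene.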

Other observations

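Other gene groups were given the same test for 24 h of MEKi in XY gonads. Of 5 VEGF ligand genes 2 were lower, Pgf (-0.73) and Vegfc (-1.92), named after their values were seen. Of 3 tip cell genes 1, Esm1, was lower, and of 3 lymphatic genes, 5 other connexin genes and 10 other SOX genes none was called. Among cell type markers, 1 of 4 Leydig genes was lower, 1 of 4 pre-granulosa genes was higher, and none of 4 interstitial progenitor genes or 2 duct epithelium genes was called. In uncultured gonads 5 of 6 Sertoli genes were lower and 4 of 4 pre-granulosa genes higher in XX than in XY.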
